A study of Mus musculus with 16 samples.

Results

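The effect of culture on dermal fibroblasts of young mice was measured on 8 of the 16 arrays of the series. Dermal fibroblasts are the cells that make and maintain the collagen-rich matrix of the skin. All 8 samples came from female C57Bl/6 mice, an inbred laboratory strain, aged 2 months, with no transgene or treatment named. The 4 young in vivo arrays hold cells profiled directly after isolation from the skin, and the 4 young cultured arrays hold cells profiled after growth in culture. The other 8 arrays hold the same pair of conditions from mice aged 18 months and enter only the last comparison. Each sample was RNA of 5000 cells, amplified as cDNA over 23 cycles and hybridised to an Affymetrix mouse expression array. Each mouse gave both kinds of sample, but the labels do not say which arrays share a mouse or a collection day. How long the cells were cultured, in which medium and how fibroblasts were purified is unstated in the sources used here. In vivo cells also went through isolation, so changes that arise there cannot be told apart from those that arise in culture.

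The values are log2 intensities, and every level given here is on that scale. Each gene is represented by the probe set with the highest mean over the 16 arrays. Of 17097 genes, 14362 had at least 4 of the 8 young arrays above 3.87 and were tested. A change is the mean of the 4 cultured arrays minus the mean of the 4 in vivo arrays, given ± its standard error (SE). Levels of groups are means ± SD with n = 4. Genes called changed had an adjusted p under 0.05 in limma, a linear model with a shared estimate of the spread, with Benjamini-Hochberg adjustment over the 14362 genes. The brightest 5% of the 23 nonspecific control probe sets lay above 5.01, which serves here as a guide to background. A group mean at or below that level is called near background, and the fold change against it is limited by background signal.

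Resting dermal fibroblasts divide rarely, keep a soft matrix of fibrillar collagen, small proteoglycans and elastic fibres, and make chemokines and complement proteins. On a stiff surface with serum, fibroblasts spread, build actin stress fibres anchored at focal adhesions and can take on features of the myofibroblast, the contractile cell of healing wounds. Mechanical tension acts on transcription through serum response factor (SRF) with its MRTF cofactors, and through the coactivators YAP and TAZ. Serum growth factors act through cyclins and E2F factors to start DNA replication and division.

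The 2 conditions formed separate clusters. Pearson correlations were 0.982 to 0.992 among in vivo arrays, 0.991 to 0.996 among cultured arrays and 0.879 to 0.904 across the conditions. A first principal component with 88.26% of the variance separated the conditions, and the second (4.12%) spread the in vivo arrays, with replicates 1 and 3 at its ends. The median SD of a gene was 0.178 among in vivo and 0.120 among cultured arrays. The 3' minus 5' difference of the beta-actin control probe sets, a measure of RNA integrity and of the length of the amplified cDNA, was -0.41 ± 0.07 in vivo and 0.07 ± 0.04 in culture (SD, n = 4, exact two-sided permutation p = 0.0286, the smallest that 70 labelings allow). The same difference did not pass for Gapdh (p = 0.543), Tfrc (p = 0.0857) or Pcx (p = 0.714) in exact permutation tests. Its part in the results was not tested.

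Culture was associated with a change in most genes. Of the genes tested, 10018 (69.8%) were called, 4809 (33.5%) as higher and 5209 (36.3%) as lower in culture. With a change of at least 2-fold as well, 3435 (23.9%) passed, 2202 (15.3%) higher and 1233 (8.59%) lower. No overlap between the groups was seen for 9229 genes (64.3%), 4518 (31.5%) higher and 4711 (32.8%) lower. At least 16-fold changes were seen in 59 genes that were higher and 35 that were lower. The median change of all genes was -0.11, and it was -0.45 after each array was shifted to a common 75th percentile and -0.03 after cyclic loess. Higher genes made up 48.0% of the calls, against 28.49% and 50.3% under these scalings. It was 57.3% when only genes brighter than the nonspecific controls in at least 4 arrays were kept, a filter chosen after seeing the data. The split into higher and lower calls thus depends on the scaling, and the counts of each gene group are read against these background shares. Of the tested genes 3792 had both group means near background and 1732 had 1.

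The largest increase was in Tpm2, a tropomyosin that wraps actin filaments. Tpm2 lay at 5.63, 4.97, 4.96 and 4.77 in the in vivo arrays and 11.55, 11.70, 11.53 and 11.52 in the cultured arrays (change 6.49 ± 0.16, 90.0-fold, adjusted p = 1.05e-10). Hmga2, a chromatin protein of embryonic and dividing cells, was at 4.71, 5.17, 4.49 and 4.47 in the in vivo arrays and 10.89, 10.96, 10.96 and 11.25 in the cultured arrays (6.31 ± 0.15, 79.1-fold, adjusted p = 9.38e-11). Npnt, the matrix protein nephronectin, was at 3.77, 4.26, 3.83 and 3.63 in the in vivo arrays and 10.01, 10.16, 10.26 and 10.21 in the cultured arrays (6.29 ± 0.13, 78.1-fold, adjusted p = 7.00e-11). For each of these genes the cultured arrays were close together and far above all in vivo arrays, which were near background for Hmga2 and Npnt. F2r, the thrombin receptor PAR1, lay at 6.20, 6.59, 5.08 and 5.45 in the in vivo arrays and 10.93, 10.96, 10.97 and 10.81 in the cultured arrays (5.09 ± 0.26, 34-fold, adjusted p = 1.76e-08), with the in vivo replicates 1 and 2 above replicates 3 and 4. Steap1, of a family of metalloreductases, was 41.7-fold higher (5.38 ± 0.13, adjusted p = 7.00e-11). Fabp5, a fatty acid binding protein, was 37.3-fold higher (5.22 ± 0.12, adjusted p = 7.00e-11). Prl2c2, a proliferin of the prolactin family, was at 4.54, 4.80, 5.21 and 5.28 in the in vivo arrays and 10.65, 9.23, 11.16 and 11.26 in the cultured arrays (5.62 ± 0.37, 49.1-fold, adjusted p = 1.22e-07). Cultured replicate 2 was the lowest of its group, yet above every in vivo array. Prl2c2 belongs to a set of near-identical genes, so its signal may be shared between them.

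The largest decrease was in Gem, a small GTPase that restrains voltage-gated calcium channels. Gem lay at 9.67, 9.72, 9.77 and 10.04 in the in vivo arrays and 4.74, 4.57, 4.35 and 4.52 in the cultured arrays (-5.26 ± 0.11, 38.2-fold, adjusted p = 7.00e-11). Abi3bp, an extracellular matrix protein, was at 9.03, 9.12, 8.68 and 9.14 in the in vivo arrays and 3.96, 3.99, 4.09 and 3.54 in the cultured arrays (-5.10 ± 0.14, 34.2-fold, adjusted p = 2.17e-10). Gda, the guanine deaminase of purine breakdown, was at 8.96, 8.67, 7.92 and 8.84 in the in vivo arrays and 3.73, 3.69, 3.63 and 3.85 in the cultured arrays (-4.87 ± 0.19, 29.3-fold, adjusted p = 2.06e-09). In all of them the cultured arrays were near background. No value overlapped, which the choice of these genes required. Other large decreases were those of Ptgfr, the receptor of prostaglandin F2-alpha (-4.77 ± 0.12), and Sema3b, a secreted semaphorin (-4.63 ± 0.17). Galnt15, an enzyme of mucin-type glycosylation, was at -4.49 ± 0.15 and Entpd2, an ectoenzyme that splits extracellular ATP, at -4.46 ± 0.14. Scara5, a receptor for ferritin, was at -4.41 ± 0.14 and Olfml1, a secreted olfactomedin-like protein, at -4.33 ± 0.15. Amy1, an amylase, was 30.9-fold lower (-4.95 ± 0.10, adjusted p = 4.61e-11), and Amy1 too has close copies that the probe set may read.

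**Figure D1:**
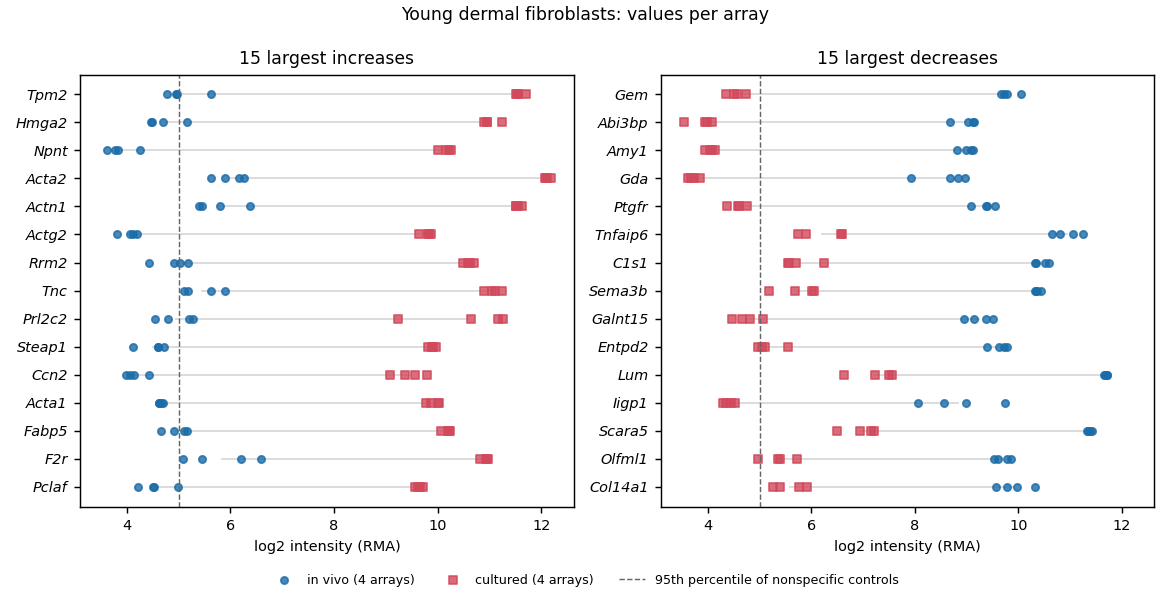
Log2 intensity (x axis) of the 15 genes with the largest increase (left) and the 15 with the largest decrease (right), with 1 point per array, circles for the 4 in vivo and squares for the 4 cultured arrays; grey lines join the group means. These 30 genes were chosen among called genes whose groups do not overlap. For many of them the lower group sits at or left of the dashed line, the 95th percentile of the nonspecific controls at 5.01.

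Genes of the contractile apparatus were higher in cultured cells. Of 18 tested genes of the contractile and stress fibre list (21 listed), 17 rose, none fell and 1 did not pass, with a median change of 2.40 against -0.11 over all genes tested. Acta2, the smooth muscle alpha-actin of myofibroblasts, was at 6.27, 5.90, 6.16 and 5.62 in the in vivo arrays and 12.10, 12.19, 12.11 and 12.08 in the cultured arrays (6.13 ± 0.13, 70.2-fold, adjusted p = 7.00e-11). Actn1, the alpha-actinin that crosslinks actin in stress fibres and adhesions, was at 5.81, 6.38, 5.46 and 5.39 in the in vivo arrays and 11.63, 11.56, 11.51 and 11.52 in the cultured arrays (5.80 ± 0.18, 55.5-fold, adjusted p = 5.05e-10). Both were well above background before culture, and their cultured values were closer together than their in vivo values. The striated and smooth muscle actins Acta1 and Actg2, which were near background in vivo, rose from 4.66 ± 0.04 to 9.92 ± 0.12 and from 4.05 ± 0.17 to 9.80 ± 0.11. These actins are nearly identical in their coding sequences, so part of a signal may come from Acta2. The median stayed above 0 under both other scalings (2.06 and 2.08), with 16 of the 18 genes higher.

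The promoters of Acta1 and Myl9 are shown because both genes rose and their RefSeq windows hold a CArG box, the site to which SRF binds. Myl9, the regulatory light chain of smooth muscle myosin, was at 8.19, 8.21, 8.32 and 8.88 in the in vivo arrays and 11.73, 11.67, 11.45 and 11.60 in the cultured arrays (3.21 ± 0.15, 9.27-fold, adjusted p = 7.26e-09). Each window runs 5′ to 3′ from 250 bases before to 50 bases after the annotated transcription start (RefSeq, GRCm38.p6), and the capitals mark the CArG box. The window of Acta1 is chr8:123894726-123895025 on the minus strand and that of Myl9 chr2:156775214-156775513 on the plus strand. The box begins 73 bases before the start in Acta1 and 161 bases before it in Myl9.
Acta1: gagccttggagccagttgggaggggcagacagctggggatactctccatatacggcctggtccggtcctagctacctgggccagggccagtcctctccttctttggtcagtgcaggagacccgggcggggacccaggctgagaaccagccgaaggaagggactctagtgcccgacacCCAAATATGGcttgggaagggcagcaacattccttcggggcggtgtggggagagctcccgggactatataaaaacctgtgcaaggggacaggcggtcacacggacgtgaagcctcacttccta
Myl9: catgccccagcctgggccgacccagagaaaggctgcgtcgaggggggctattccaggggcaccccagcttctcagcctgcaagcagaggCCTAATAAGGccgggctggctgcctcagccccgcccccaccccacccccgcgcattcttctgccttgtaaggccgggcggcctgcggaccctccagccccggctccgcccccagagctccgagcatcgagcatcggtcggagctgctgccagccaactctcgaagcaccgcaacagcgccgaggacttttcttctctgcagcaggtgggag
A CArG box, searched on both strands, was found in 4 of the 16 contractile genes that had a window. Of all 32851 windows of 300 bases, 1.63% hold one, or 1.81% of the genes with a window. A match is a sequence description and shows no binding.

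Focal adhesion and integrin genes were mostly higher, with 14 of 20 tested genes up, 4 down and 2 not passing (median 0.86). Vcl, vinculin, which links integrins to actin, was at 7.57, 7.67, 7.51 and 7.32 in the in vivo arrays and 10.40, 10.44, 10.61 and 10.60 in the cultured arrays (3.0 ± 0.10, 7.97-fold, adjusted p = 8.24e-10). Csrp1, a LIM protein of actin filaments, rose by 2.69 ± 0.11 and Pdlim7, a PDZ and LIM protein of stress fibres, by 2.17 ± 0.09. Itga8, the integrin chain that binds nephronectin, was at 3.69, 4.01, 3.84 and 3.74 in the in vivo arrays and 6.97, 7.03, 5.79 and 5.27 in the cultured arrays (2.45 ± 0.33, 5.45-fold, adjusted p = 5.05e-05). Its cultured replicates 1 and 2 were higher than replicates 3 and 4, and all were above the in vivo arrays, which were near background. Npnt, its ligand, rose 78.1-fold in the same samples. The receptor chains that fell were Itgb5, a vitronectin receptor subunit (-1.47 ± 0.10, adjusted p = 1.95e-07), Itga3, a laminin receptor chain (-0.56 ± 0.12, adjusted p = 0.0012), and Itga2, a collagen receptor chain near background in both groups (-0.55 ± 0.08, adjusted p = 1.37e-04).

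The YAP and SRF list holds targets of these factors and also some of their regulators, among them Srf and Mrtfb. Of its 17 tested genes, 13 rose, 2 fell and 2 did not pass (median 1.66). Ccn2, the connective tissue growth factor and a standard YAP target, was at 4.06, 4.14, 3.98 and 4.43 in the in vivo arrays and 9.38, 9.09, 9.80 and 9.56 in the cultured arrays (5.31 ± 0.15, 39.5-fold, adjusted p = 2.64e-10). Ccn1, of the same list, did not pass (-0.20 ± 0.14, adjusted p = 0.203). It was at 11.14 ± 0.27 in vivo and 10.94 ± 0.15 in culture, with overlapping values. Ankrd1, a YAP target of cardiac and wound tissue, was at 4.09, 4.51, 4.83 and 4.51 in the in vivo arrays and 8.08, 7.62, 9.07 and 9.59 in the cultured arrays (4.11 ± 0.36, 17.2-fold, adjusted p = 1.12e-06). Its cultured replicates 3 and 4 lay above replicates 1 and 2. Fhl2, a LIM protein whose gene responds to SRF, rose by 3.73 ± 0.08. Nt5e, the ectoenzyme CD73 that makes adenosine, was at 7.81, 7.81, 7.41 and 7.87 in the in vivo arrays and 4.64, 4.72, 4.44 and 4.81 in the cultured arrays (-3.07 ± 0.12, 8.41-fold, adjusted p = 2.68e-09), so it moved against the rest of the list. Mrtfb, a cofactor of SRF itself, was lower as well (-0.73 ± 0.09, adjusted p = 2.35e-05).

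Markers of smooth muscle cells and pericytes went both ways. In that list 3 of 8 tested genes rose, 3 fell and 2 did not pass. Acta2, which is also on the contractile list, had the largest increase among them (6.13). The mean level of the marker list was 5.17 to 5.33 in the in vivo and 6.24 to 6.39 in the cultured arrays. The median change of the list was -0.04, and its sign moved with the processing, so it has no settled direction. Scaling to the 75th percentile gave -0.38, cyclic loess 0.18 and averaging the probe sets of each gene 0.26. The stricter filter gave 2.12, but it drops dim members of the list. That value describes fewer genes and does not bear on the direction. Myh11, the smooth muscle myosin heavy chain, was at 4.44, 4.43, 4.82 and 4.26 in the in vivo arrays and 9.47, 9.61, 8.93 and 8.99 in the cultured arrays (4.76 ± 0.17, 27.1-fold, adjusted p = 1.11e-09). Mcam, an adhesion molecule of pericytes and endothelium, rose by 2.12 ± 0.21, while Kcnj8, a pericyte potassium channel, was at 6.92, 7.15, 7.07 and 7.54 in the in vivo arrays and 4.24, 4.09, 4.28 and 4.16 in the cultured arrays (-2.98 ± 0.13, 7.88-fold, adjusted p = 4.25e-09). In the skeletal muscle list Acta1 rose, while 5 of the 9 tested genes fell, among them Mb, myoglobin (-0.68 ± 0.10, adjusted p = 7.64e-05), Tnnt3, the fast troponin T (-0.44 ± 0.09, adjusted p = 0.0011), and Myod1, the muscle regulator (-0.51 ± 0.12, adjusted p = 0.0024). Of the 9 skeletal muscle genes, 7 were near background in vivo and 6 in culture. After cyclic loess 3 of them were lower, and after scaling to the 75th percentile 8 were. The part of muscle cells and pericytes in the contractile result was not tested. In a bulk sample, fewer cells of a type and less RNA per cell cannot be told apart.

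**Figure D2:**
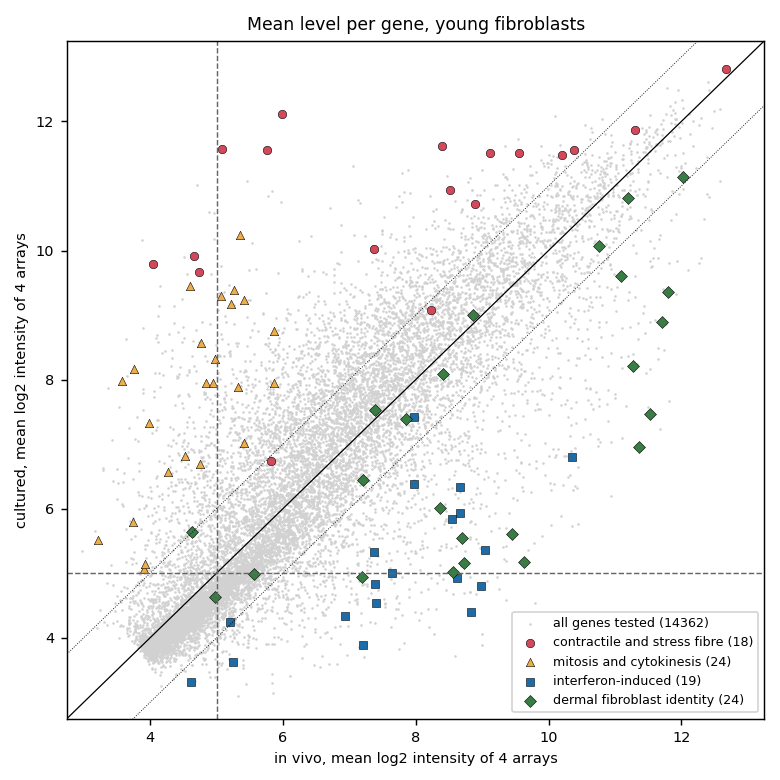
Mean log2 intensity of each tested gene in the 4 in vivo arrays (x axis) and the 4 cultured arrays (y axis), grey for all 14362 genes and coloured for 4 lists; the solid diagonal marks no change, the dotted diagonals a 2-fold change and the dashed lines the 95th percentile of the nonspecific controls. The 24 mitosis genes lie above the upper dotted line, most of them left of the dashed line, and the 19 interferon-induced genes lie below the solid diagonal.

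Cell division genes rose throughout. All 24 tested genes of the mitosis and cytokinesis list (25 listed) were at least 2-fold higher in culture, with a median change of 3.05, and 15 of them were near background in vivo. Ccna2, the cyclin of S phase and mitotic entry, was at 5.07, 5.24, 5.35 and 5.74 in the in vivo arrays and 10.22, 10.31, 10.20 and 10.25 in the cultured arrays (4.90 ± 0.13, 29.8-fold, adjusted p = 1.59e-10). Cdca8, borealin of the chromosomal passenger complex, was at 4.62, 4.70, 4.69 and 4.42 in the in vivo arrays and 9.13, 9.42, 9.57 and 9.70 in the cultured arrays (4.85 ± 0.13, 28.8-fold, adjusted p = 1.44e-10). Cenpf, a kinetochore protein, rose from 3.58 ± 0.17 to 7.98 ± 0.14 and Anln, anillin of the contractile ring, from 3.76 ± 0.04 to 8.16 ± 0.08. No value of these genes overlapped between the groups.

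Many mitosis genes carry a cell cycle homology region (CHR), a site through which the DREAM complex holds them silent in resting cells. The windows of Cdca8 (chr4:124936868-124937167, minus strand) and Cenpf (chr1:189688037-189688336, minus strand) are shown with their CHR in capitals, on the same build and with the same window as the promoters of Acta1 and Myl9. The CHR begins at base 14 after the start in Cdca8 and at base 3 in Cenpf.
Cdca8: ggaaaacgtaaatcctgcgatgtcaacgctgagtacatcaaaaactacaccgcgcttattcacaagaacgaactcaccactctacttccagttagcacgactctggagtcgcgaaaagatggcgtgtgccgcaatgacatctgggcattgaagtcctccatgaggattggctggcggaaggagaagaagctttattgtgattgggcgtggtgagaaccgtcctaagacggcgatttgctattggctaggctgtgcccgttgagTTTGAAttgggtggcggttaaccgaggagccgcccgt
Cenpf: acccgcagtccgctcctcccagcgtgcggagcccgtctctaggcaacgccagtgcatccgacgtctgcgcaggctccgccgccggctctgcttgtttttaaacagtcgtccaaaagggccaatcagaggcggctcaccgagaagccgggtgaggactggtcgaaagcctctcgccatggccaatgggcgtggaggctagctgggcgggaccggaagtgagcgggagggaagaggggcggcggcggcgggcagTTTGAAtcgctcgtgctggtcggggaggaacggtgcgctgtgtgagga
The CHR, taken on both strands as TTTGAA or as the palindrome TTCGAA, was in 17 of the 20 tested mitosis genes with a window, against 19.23% of all windows and 21.66% of genes. The CCAAT box, read on both strands as CCAAT or ATTGG, was in 17 of the 20 as well, against 37.41% of windows and 41.06% of genes. In Cdca8 the CHR and a CCAAT box on the other strand share a base.

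The DNA replication and nucleotide supply list had 23 of 25 tested genes higher, none lower and 2 not passing (median 2.45). Rrm2, the ribonucleotide reductase subunit that limits the supply of deoxynucleotides, was at 5.03, 4.92, 4.43 and 5.19 in the in vivo arrays and 10.70, 10.48, 10.58 and 10.63 in the cultured arrays (5.71 ± 0.15, 52.2-fold, adjusted p = 1.22e-10). Mcm2, a subunit of the replicative helicase, rose by 4.46 ± 0.12, Mcm5 of the same helicase by 4.20 ± 0.18 and Cdt1, which loads it onto origins, by 3.90 ± 0.20. Pclaf, a partner of the replication clamp PCNA, was 33.9-fold higher (5.08 ± 0.14, adjusted p = 2.33e-10).

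Among G1 cyclins, cyclin-dependent kinase inhibitors and p53 targets, 14 of 24 tested genes rose, 7 fell and 3 did not pass (median 0.59). Gas1, a growth arrest protein of quiescent fibroblasts, was at 9.02, 8.78, 8.68 and 8.88 in the in vivo arrays and 6.42, 6.27, 4.99 and 5.53 in the cultured arrays (-3.04 ± 0.26, 8.21-fold, adjusted p = 1.05e-06). Cultured replicate 3 was the lowest, and all cultured arrays lay below the in vivo arrays. Cdkn1c, the inhibitor p57 expressed from an imprinted gene, was at 7.70, 7.92, 7.60 and 7.94 in the in vivo arrays and 5.03, 4.72, 4.88 and 5.13 in the cultured arrays (-2.85 ± 0.12, 7.21-fold, adjusted p = 3.43e-09). Btg2, an antiproliferative p53 target, fell by 2.30 ± 0.14. Cdkn2b, the inhibitor p15 that TGF-beta induces, went the other way, from 4.47 ± 0.09 to 6.74 ± 0.15 (2.27 ± 0.10, adjusted p = 5.97e-09).

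Chromatin genes were higher for 12 of 21, lower for 4 and not passing for 5 (median 0.77). The maintenance DNA methyltransferase Dnmt1 rose by 2.71 ± 0.21 and its partner Uhrf1 by 2.04 ± 0.15, whereas the de novo methyltransferase Dnmt3a fell by 0.83 ± 0.11. The methyltransferases of Polycomb complex 2 also moved apart. Ezh2 was at 5.09, 4.93, 4.45 and 4.85 in the in vivo arrays and 8.0, 7.84, 7.54 and 7.81 in the cultured arrays (2.97 ± 0.14, 7.82-fold, adjusted p = 1.09e-08), and Ezh1, its counterpart of resting cells, was at 8.79, 8.65, 8.46 and 8.99 in the in vivo arrays and 7.21, 7.35, 7.10 and 7.03 in the cultured arrays (-1.55 ± 0.12, 2.93-fold, adjusted p = 5.80e-07). Hmgb2, a DNA-bending protein of dividing cells, rose by 1.98 ± 0.16, and Cbx7, a Polycomb complex 1 reader, fell by 1.31 ± 0.16.

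Biosynthesis genes rose with smaller changes than division genes. Ribosome biogenesis had 20 of 21 tested genes higher and 1 not passing (median 1.12), led by Wdr12, a factor of the large subunit (3.33 ± 0.20), and Nhp2, a core protein of H/ACA RNA particles (2.77 ± 0.13). Utp4, of the small subunit processome, rose by 2.22 ± 0.10 and Dkc1, the pseudouridine synthase dyskerin, by 1.77 ± 0.10. All 22 tested proteasome genes rose, with changes from 0.55 to 1.89 and a median of 1.11. Psmd11 and Psmd4 each had another probe set that was lower (-0.28 and -0.48). Psmd14, the deubiquitinase of the lid, was at 9.12, 9.15, 8.89 and 8.72 in the in vivo arrays and 10.82, 10.89, 10.89 and 10.82 in the cultured arrays (1.89 ± 0.11, 3.69-fold, adjusted p = 3.92e-08). Psmd12 of the lid (1.70 ± 0.12), the ATPase Psmc1 (1.43 ± 0.12) and the core subunit Psmb7 (1.42 ± 0.15) followed. The proteasome list kept 22 higher genes under both other scalings, with medians of 0.76 and 0.75.

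Energy metabolism shifted in the same direction. Of 25 tested genes of oxidative phosphorylation 23 rose, 1 fell and 1 did not pass (median 0.83), with Cox5a of complex IV at 8.73, 8.29, 8.08 and 8.15 in the in vivo arrays and 10.66, 10.55, 10.70 and 10.67 in the cultured arrays (2.33 ± 0.13, 5.04-fold, adjusted p = 3.88e-08). Uqcrfs1, the Rieske protein of complex III, rose by 1.73 ± 0.14, the ATP synthase subunit gene Atp5g1 by 1.50 ± 0.15 and Sdhc of complex II by 1.48 ± 0.12, while Cox6c of complex IV fell by 0.40 ± 0.10. Glycolysis and lactate genes were higher for 11 of 16, lower for 2 and not passing for 3 (median 1.10). Slc2a1, the glucose transporter GLUT1, was at 8.50, 8.47, 7.91 and 8.15 in the in vivo arrays and 10.40, 10.24, 10.92 and 10.90 in the cultured arrays (2.36 ± 0.18, 5.12-fold, adjusted p = 4.08e-07). Slc16a3, the lactate exporter MCT4, was at 7.03, 6.99, 6.81 and 6.64 in the in vivo arrays and 9.21, 9.11, 9.56 and 9.54 in the cultured arrays (2.49 ± 0.13, 5.61-fold, adjusted p = 2.04e-08), and Pgk1, phosphoglycerate kinase, rose by 2.18 ± 0.13. For Slc2a1 and Slc16a3 the cultured replicates 3 and 4 were the highest, as for Ankrd1. The phosphofructokinases split: Pfkl, of liver type, rose by 2.07 ± 0.13, with another of its probe sets lower at -0.78, and Pfkm, of muscle type, fell by 0.54 ± 0.11. Pfkfb3, which makes an activator of phosphofructokinase, was lower by a change of -0.30 ± 0.12, adjusted p = 0.0401, with overlapping values, and it was no longer called when any of 6 of the 8 arrays was left out (cultured replicates 1, 2 and 4 and in vivo replicates 1, 2 and 3, adjusted p from 0.0587 to 0.118 in limma).

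Cholesterol synthesis had 12 of 15 tested genes higher and 3 not passing (median 1.31). Sqle, squalene epoxidase, was at 4.39, 4.43, 4.58 and 3.92 in the in vivo arrays and 8.38, 8.33, 8.55 and 8.57 in the cultured arrays (4.13 ± 0.14, 17.5-fold, adjusted p = 6.52e-10). Fdps, farnesyl diphosphate synthase, rose by 3.17 ± 0.13, Sc5d, a late desaturase, by 2.43 ± 0.12 and Idi1, the isomerase of isopentenyl diphosphate, by 2.72 ± 0.27. Idi1 varied among cultured arrays (7.12, 6.34, 7.97 and 7.66), with replicate 2 the lowest. Serine, folate and amino acid supply had 14 of 19 higher, 2 lower and 3 not passing (median 2.05). Psat1, the transaminase of serine synthesis, was at 6.28, 6.39, 5.45 and 5.75 in the in vivo arrays and 10.71, 10.78, 10.74 and 10.75 in the cultured arrays (4.78 ± 0.18, 27.4-fold, adjusted p = 1.58e-09), and Psph, the last enzyme of that path, rose by 3.22 ± 0.10. Asns, asparagine synthetase, was at 5.94, 5.39, 5.34 and 5.49 in the in vivo arrays and 10.23, 10.11, 10.09 and 10.02 in the cultured arrays (4.57 ± 0.13, 23.8-fold, adjusted p = 2.60e-10). Chac1, a glutathione-degrading enzyme induced by ATF4, rose by 4.43 ± 0.11, while the transcript of Atf4 itself, which is regulated largely at translation, fell by 0.65 ± 0.09. Shmt1, the cytosolic serine hydroxymethyltransferase, fell by 1.13 ± 0.14, although another probe set of the gene was higher by 0.62.

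Stress and antioxidant genes went both ways, as did all genes tested (33.5% higher and 36.3% lower). NRF2 targets and antioxidant enzymes had 11 of 21 higher, 6 lower and 4 not passing, with a median of 0.27 that turned to -0.03 after cyclic loess and -0.08 after scaling to the 75th percentile, each with 9 genes higher and 9 lower. Nqo1, a quinone reductase and classical NRF2 target, was at 5.36, 5.56, 5.41 and 5.67 in the in vivo arrays and 8.18, 8.39, 8.92 and 9.16 in the cultured arrays (3.16 ± 0.19, 8.95-fold, adjusted p = 5.59e-08). In contrast Gstt1, a glutathione transferase, was at 9.65, 9.91, 9.77 and 9.93 in the in vivo arrays and 6.77, 6.81, 6.59 and 6.79 in the cultured arrays (-3.08 ± 0.10, 8.43-fold, adjusted p = 5.22e-10). Sod3, the extracellular superoxide dismutase, fell by 2.91 ± 0.17 and Mgst1, the microsomal glutathione transferase, by 2.73 ± 0.17. The 12 tested heat shock chaperones had 6 higher and 5 lower, with a median of 0.29 that turned to -0.06 after scaling to the 75th percentile. Those that rose included Hspb1 (2.99 ± 0.12), Cryab (1.60 ± 0.17), Hspa4l (1.50 ± 0.15) and Hspe1, the mitochondrial partner of the chaperonin (1.38 ± 0.10). Those that fell were led by the heat-inducible Dnajb1 (-1.15 ± 0.10, adjusted p = 8.97e-07), Hspa1b, an inducible Hsp70 with overlapping values (-1.04 ± 0.26, adjusted p = 0.0042), and Hspb8 (-0.93 ± 0.10, adjusted p = 6.57e-06). Secretory chaperones of the endoplasmic reticulum had 6 of 20 higher, 2 lower and 12 not passing, and their median of 0.08 turned to -0.21 after cyclic loess and -0.26 after scaling to the 75th percentile. The counts turned as well, to 1 higher and 9 lower after cyclic loess and 1 higher and 10 lower after scaling to the 75th percentile. Hyou1, a chaperone of the Hsp70 class, rose by 1.06 ± 0.16 and Sec61b, of the translocon, by 0.55 ± 0.15, while Dnajb9, a cochaperone of BiP, fell by 1.50 ± 0.11 and the retrieval receptor Kdelr3 by 0.52 ± 0.10. Sec61b was not called under either other scaling (adjusted p = 0.181 and 0.177 in limma).

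**Figure D3:**
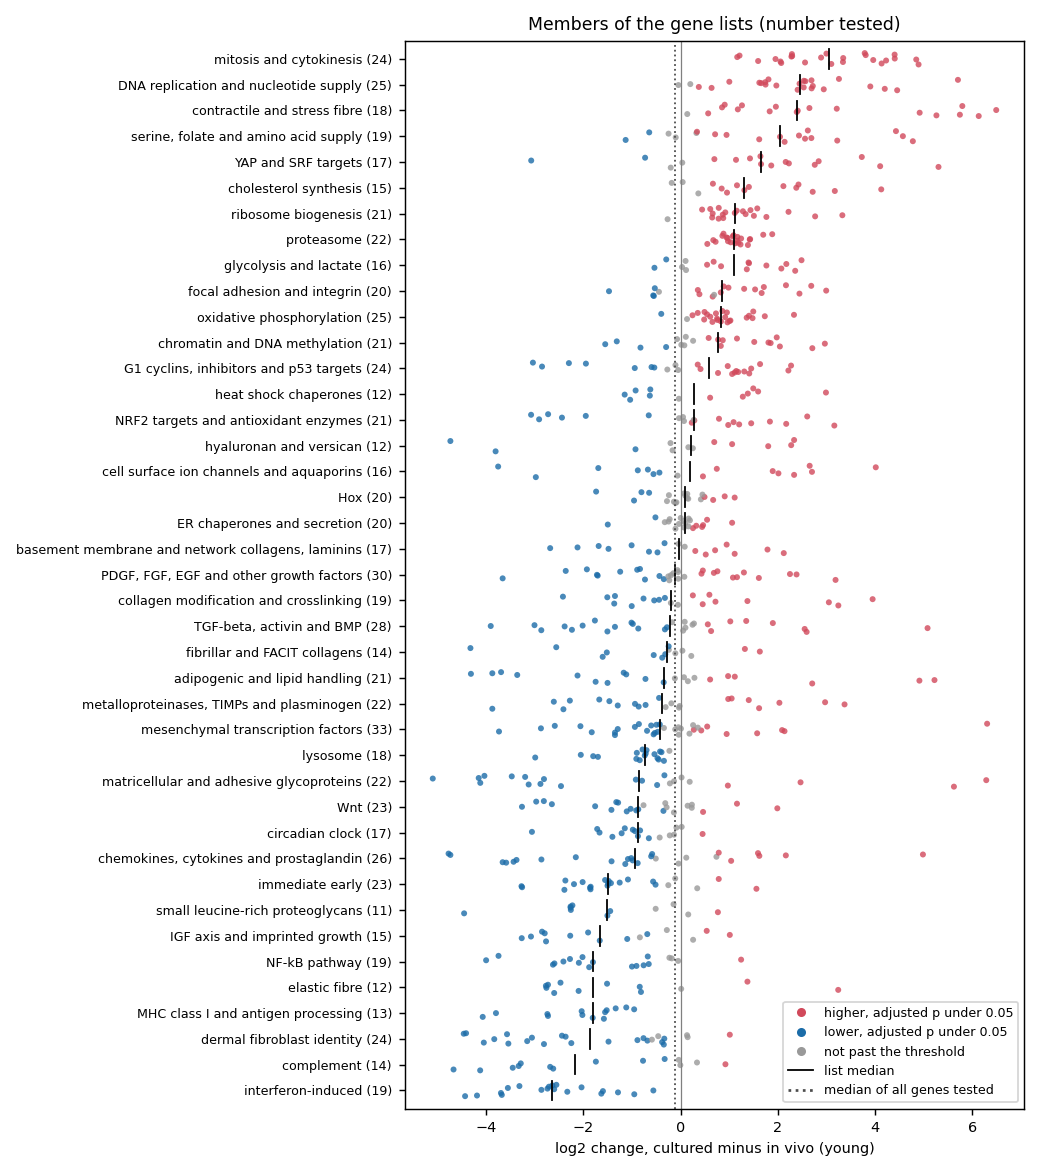
Change with culture (x axis, log2, cultured minus in vivo) of each tested gene in 41 lists of pathways and gene families, ordered by the list median (black bar), with the number of genes tested in brackets; red and blue points passed the threshold and grey points did not. The mitosis, replication and contractile lists lie furthest right, the interferon, complement and fibroblast identity lists furthest left, and the dotted line marks the median of all genes at -0.11.

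Genes of innate defence fell. All 19 tested interferon-induced genes (24 listed) were lower in culture, 17 of them at least 2-fold, with a median change of -2.64 and no overlap between the groups for any of the 19. Iigp1, an immunity-related GTPase, was at 9.74, 8.57, 8.06 and 8.99 in the in vivo arrays and 4.36, 4.53, 4.29 and 4.45 in the cultured arrays (-4.43 ± 0.27, 21.6-fold, adjusted p = 6.78e-08). Gbp2, a guanylate-binding protein, was at 9.61, 8.17, 8.78 and 9.39 in the in vivo arrays and 4.95, 4.73, 4.41 and 5.11 in the cultured arrays (-4.19 ± 0.27, 18.2-fold, adjusted p = 1.05e-07). Igtp, another immunity-related GTPase, was at 9.36, 8.24, 7.81 and 9.08 in the in vivo arrays and 4.97, 4.96, 4.75 and 5.03 in the cultured arrays (-3.70 ± 0.28, 13-fold, adjusted p = 3.52e-07). The in vivo values of these 3 genes differed by over 1 between arrays, with replicates 1 and 4 the highest, while the cultured arrays were alike and near background. Gbp7 was tighter, at 9.16, 8.66, 8.96 and 9.38 in the in vivo arrays and 5.21, 5.42, 5.29 and 5.53 in the cultured arrays (-3.68 ± 0.15, 12.8-fold, adjusted p = 2.32e-09).

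The windows of Gbp2 (chr3:142620413-142620712, plus strand) and Igtp (chr11:58199306-58199605, plus strand) each hold a core of the interferon-stimulated response element (ISRE), given here in capitals on the same build as the other promoters. The core begins 59 bases before the start in Gbp2, on the opposite strand, and 34 bases before it in Igtp.
Gbp2: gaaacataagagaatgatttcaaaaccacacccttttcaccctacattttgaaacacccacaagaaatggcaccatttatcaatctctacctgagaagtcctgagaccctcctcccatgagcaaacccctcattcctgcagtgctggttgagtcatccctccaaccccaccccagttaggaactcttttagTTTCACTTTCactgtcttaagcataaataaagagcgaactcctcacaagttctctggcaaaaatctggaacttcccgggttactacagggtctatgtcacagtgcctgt
Igtp: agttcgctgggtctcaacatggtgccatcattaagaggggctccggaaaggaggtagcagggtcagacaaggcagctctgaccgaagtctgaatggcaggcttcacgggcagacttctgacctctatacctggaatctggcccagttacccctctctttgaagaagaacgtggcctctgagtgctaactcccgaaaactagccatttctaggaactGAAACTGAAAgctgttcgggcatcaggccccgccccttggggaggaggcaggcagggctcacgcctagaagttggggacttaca
The core, searched on both strands as a pair of GAAA runs with any 2 bases between them, was in 9 of the 16 tested interferon-induced genes with a window, against 3.44% of all windows and 3.99% of genes.

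MHC class I and antigen processing, which display peptides to T cells and are raised by interferon, had all 13 tested genes lower, 12 of them at least 2-fold (median -1.81). H2-Q4, a class I heavy chain, was at 10.65, 10.10, 10.37 and 10.34 in the in vivo arrays and 6.61, 6.22, 5.76 and 6.59 in the cultured arrays (-4.07 ± 0.18, 16.8-fold, adjusted p = 6.33e-09), and its signal may be shared with other class I genes of similar sequence. Psmb8, a catalytic subunit of the immunoproteasome, was at 10.50, 10.31, 10.04 and 10.33 in the in vivo arrays and 6.65, 6.51, 6.28 and 6.55 in the cultured arrays (-3.80 ± 0.12, 13.9-fold, adjusted p = 4.78e-10). This decrease stood beside the increase of all tested genes of the constitutive proteasome list. Tapbp, tapasin of the peptide loading complex, fell by 2.74 ± 0.09 and H2-T23, a nonclassical class I gene, by 2.73 ± 0.12.

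Complement genes were lower for 10 of 14 tested genes, higher for 1 and not passing for 3 (median -2.18). C1s1, the protease C1s of the classical path, was at 10.32, 10.52, 10.34 and 10.58 in the in vivo arrays and 6.25, 5.57, 5.70 and 5.56 in the cultured arrays (-4.67 ± 0.15, 25.5-fold, adjusted p = 5.22e-10). C1ra, its activator C1r, was at 8.98, 8.90, 8.55 and 8.87 in the in vivo arrays and 4.77, 4.59, 4.69 and 4.76 in the cultured arrays (-4.12 ± 0.11, 17.4-fold, adjusted p = 1.44e-10). C1s1 and C1ra each have a close copy in the mouse that the probe sets may also read. C4b, the fourth component, was at 9.89, 10.41, 10.42 and 10.64 in the in vivo arrays and 7.33, 6.82, 6.32 and 7.08 in the cultured arrays (-3.45 ± 0.21, 10.9-fold, adjusted p = 6.24e-08), and Serping1, the inhibitor of C1r and C1s, fell by 3.33 ± 0.12. Both proteases and their inhibitor were thus lower in the same arrays. Masp2, a protease of the lectin path, was higher (0.92 ± 0.15, adjusted p = 1.59e-04), while its other probe set was at -0.29.

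The NF-kB pathway had 15 of 19 tested genes lower, 1 higher and 3 not passing (median -1.80). Icam1, an adhesion molecule that NF-kB induces, was at 11.12, 10.98, 11.28 and 11.03 in the in vivo arrays and 7.57, 6.95, 6.41 and 7.48 in the cultured arrays (-4.0 ± 0.22, 16-fold, adjusted p = 2.43e-08). The inhibitors of NF-kB, which the factor itself induces, were lower as well, Nfkbia by a change of -2.63 ± 0.12 and Nfkbie by -2.60 ± 0.10. Map3k8, a kinase that activates ERK downstream of inflammatory receptors, was at -3.75 ± 0.12. Vcam1, another adhesion molecule that NF-kB induces, was higher, at 5.75, 5.42, 5.60 and 5.75 in the in vivo arrays and 7.02, 6.97, 6.67 and 6.84 in the cultured arrays (1.25 ± 0.11, 2.37-fold, adjusted p = 1.59e-06). Immediate early genes, whose transcripts appear within minutes of a stimulus, were lower for 18 of 23, higher for 2 and not passing for 3 (median -1.49). Fos, a subunit of AP-1, was at 12.02, 12.18, 12.17 and 12.00 in the in vivo arrays and 9.80, 9.67, 9.51 and 9.83 in the cultured arrays (-2.39 ± 0.10, 5.24-fold, adjusted p = 3.74e-09). Atf3, a stress-induced factor, was at 11.61, 11.62, 11.90 and 11.81 in the in vivo arrays and 8.76, 8.22, 8.24 and 8.63 in the cultured arrays (-3.27 ± 0.14, 9.66-fold, adjusted p = 3.57e-09). Junb, an AP-1 partner, fell by 3.26 ± 0.11 and Ier2 by 2.37 ± 0.10. Fosl1, a Fos family member of growing cells, rose by 1.56 ± 0.18 and Myc by 0.79 ± 0.12. Fos and Atf3 were lower in every cultured array and stayed above background there.

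Chemokines, cytokines and prostaglandin genes were lower for 16 of 26, higher for 6 and not passing for 4 (median -0.93). Ccl11, the chemokine eotaxin, was at 9.33, 9.37, 9.31 and 9.41 in the in vivo arrays and 5.81, 5.71, 5.52 and 5.74 in the cultured arrays (-3.66 ± 0.09, 12.6-fold, adjusted p = 1.06e-10). Ptgs2, the inducible cyclooxygenase COX-2, moved the other way, at 3.29, 3.60, 3.61 and 4.07 in the in vivo arrays and 8.54, 7.80, 8.92 and 9.25 in the cultured arrays (4.99 ± 0.27, 31.7-fold, adjusted p = 2.30e-08). It was the lowest in cultured replicate 2 and near background in all in vivo arrays, while Ptgfr, a receptor of its product line, fell 27.3-fold. Tnfrsf11b, the decoy receptor osteoprotegerin, rose by 2.17 ± 0.16 and Csf1, the macrophage growth factor, by 1.62 ± 0.10.

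Among the immune cell markers, those of macrophages and monocytes were mostly lower. The shares lower were 42.86% for T cell, 42.86% for dendritic cell and 33.33% for mast cell markers, near the 36.3% of all genes tested. Of 10 tested macrophage and monocyte markers 9 were lower and 1 higher, and their mean level was 5.14 to 5.34 in the in vivo and 4.42 to 4.54 in the cultured arrays. Of these 10 genes, 6 were near background in vivo and 8 in culture. Cd68, a lysosomal protein of macrophages, was at 8.60, 8.88, 7.72 and 7.16 in the in vivo arrays and 5.68, 5.20, 5.47 and 5.64 in the cultured arrays (-2.59 ± 0.31, 6.03-fold, adjusted p = 1.74e-05). Csf1r, the receptor of CSF1, was at -0.90 ± 0.16, Lyz2, lysozyme, at -0.95 ± 0.14, and Tyrobp, a myeloid signalling adaptor, at -1.05 ± 0.11. Lyz2 was 5.09 ± 0.29 in vivo and 4.14 ± 0.14 in culture and Tyrobp 5.11 ± 0.19 in vivo and 4.06 ± 0.11 in culture, so both lay close to background in the fresh cells too. Cx3cr1 was higher by 0.29 ± 0.11, adjusted p = 0.0311, near background and with overlapping values. It was at -0.05 after scaling to the 75th percentile, and the call was lost without cultured replicate 1 or 3 or in vivo replicate 1, 2 or 3 (adjusted p from 0.0609 to 0.0891 in limma). Of 5 tested leukocyte markers 3 were lower and 1 higher, with mean levels of 4.56 to 4.86 and 4.30 to 4.80. The lower ones were Cd52 (-0.47 ± 0.09), Laptm5 (-0.44 ± 0.13) and Rac2 (-0.32 ± 0.11), and Cd53 was 4.30 ± 0.14 in vivo and 5.19 ± 0.94 in culture. T cell markers had 3 of 7 lower, Cd8a (-0.51 ± 0.13), Cd4 (-0.39 ± 0.10) and Cd3d (-0.30 ± 0.11), with mean levels of 4.74 to 4.86 and 4.52 to 4.62. Dendritic cell markers had 3 of 7 lower, 1 higher and 3 not passing, with mean levels of 5.64 to 5.77 and 5.28 to 5.54. The class II genes in that list were Cd74 (-0.96 ± 0.12), H2-Eb1 (-0.96 ± 0.12), H2-Aa (-0.48 ± 0.10) and H2-Ab1, which was higher (0.71 ± 0.18) but lower in another of its probe sets (-0.35). The call of H2-Ab1 was lost after cyclic loess (0.34, adjusted p = 0.115 in limma), after scaling to the 75th percentile (a change of 0.36, adjusted p = 0.0674) and with the mean over probe sets (0.03, adjusted p = 0.806). The 3 tested neutrophil markers did not pass, with changes from -0.33 to -0.14, and 1 of 3 mast cell markers was lower, the chymase Cma1 (-0.49 ± 0.16, adjusted p = 0.0198). The counts of these lists moved with the scaling. After cyclic loess 6 of 10 macrophage, 1 of 5 leukocyte and 1 of 7 T cell markers were lower, and Laptm5, Rac2, Cd4 and Cd3d were not called (adjusted p = 0.13, 0.539, 0.134 and 0.577 in limma). After scaling to the 75th percentile all 7 T cell, 6 of 7 dendritic cell, 3 of 3 neutrophil and 3 of 3 mast cell markers were lower. The calls of Cd53, Cd3d and Rac2 rested on single arrays. Cd53 was lost without any array but cultured replicate 2 (adjusted p from 0.0635 to 0.116 in limma), and its change was 0.54 without cultured replicate 1. Cd3d was lost without cultured replicate 1 or 3 or in vivo replicate 1 or 4 (0.05 to 0.0828), and Rac2 without cultured replicate 2 (0.0619). Cma1 changed by -0.32 without in vivo replicate 3. The part of these cells in the decrease of the defence genes was not tested.

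Secreted signals and their receptors went both ways within several families, as did all genes tested (33.5% higher and 36.3% lower). In the TGF-beta, activin and BMP list 8 of 28 tested genes rose, 14 fell and 6 did not pass (median -0.23). Among the ligands, Inhba, the activin A subunit, was at 5.71, 6.13, 5.53 and 5.71 in the in vivo arrays and 10.62, 10.48, 11.11 and 11.19 in the cultured arrays (5.08 ± 0.18, 33.8-fold, adjusted p = 9.29e-10). Tgfb1 was at 6.0, 5.61, 5.97 and 5.95 in the in vivo arrays and 8.53, 8.31, 8.55 and 8.51 in the cultured arrays (2.59 ± 0.11, 6.03-fold, adjusted p = 3.97e-09). Bmp4 was at 9.20, 9.07, 9.42 and 9.55 in the in vivo arrays and 5.45, 5.45, 5.05 and 5.67 in the cultured arrays (-3.91 ± 0.15, 15-fold, adjusted p = 1.45e-09), and Bmp7 fell by 3.01 ± 0.13. The transcripts of Inhba and Tgfb1 were thus higher and those of Bmp4 and Bmp7 lower. None of them overlapped between the groups, which held for 64.3% of all genes tested. These ligands were named for the size of their change and do not stand for their families. Ltbp2, a matrix protein related to the latent TGF-beta binding proteins, rose by 2.55 ± 0.15. The receptor Tgfbr2 was at 11.40, 11.36, 11.17 and 11.14 in the in vivo arrays and 8.69, 8.52, 8.15 and 8.25 in the cultured arrays (-2.87 ± 0.13, 7.29-fold, adjusted p = 5.93e-09), so it fell in the arrays in which Tgfb1 rose.

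Wnt genes were lower for 13 of 23, higher for 3 and not passing for 7 (median -0.87). Axin2, a direct target and feedback inhibitor of Wnt signalling, was at 7.94, 7.99, 7.78 and 7.83 in the in vivo arrays and 5.29, 5.18, 5.22 and 5.26 in the cultured arrays (-2.65 ± 0.09, 6.27-fold, adjusted p = 6.10e-10). Rspo1, an R-spondin that amplifies Wnt signals, fell by 2.97 ± 0.19, and Sfrp1, a secreted Wnt antagonist, by 3.26 ± 0.18. Lgr5, an R-spondin receptor, was at 7.48, 7.53, 7.81 and 7.85 in the in vivo arrays and 5.32, 6.27, 3.90 and 3.93 in the cultured arrays (-2.81 ± 0.43, 7.03-fold, adjusted p = 1.36e-04), and its cultured replicates 1 and 2 lay above replicates 3 and 4. The receptor Fzd7 rose by 1.99 ± 0.15, the transcription factor Lef1, near background in both groups, by 1.16 ± 0.11 and the ligand Wnt4 by 0.46 ± 0.12. Wnt4 was not called after cyclic loess (0.18, adjusted p = 0.258 in limma), after scaling to the 75th percentile (a change of 0.12, adjusted p = 0.448) or with all 16 arrays in the fit (adjusted p = 0.0709).

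The IGF axis and imprinted growth genes were lower for 10 of 15, higher for 2 and not passing for 3 (median -1.66). Igfbp5, a binding protein of insulin-like growth factors, was at 10.26, 10.47, 10.39 and 10.51 in the in vivo arrays and 7.91, 6.98, 7.07 and 7.36 in the cultured arrays (-3.08 ± 0.18, 8.44-fold, adjusted p = 3.78e-08). Igfbp3, the main binding protein of serum, was at 5.78, 9.01, 8.27 and 8.54 in the in vivo arrays and 4.64, 4.65, 4.63 and 4.61 in the cultured arrays (-3.27 ± 0.53, 9.63-fold, adjusted p = 2.15e-04), with in vivo replicate 1 far below the other in vivo arrays and still above the cultured arrays. Peg3, an imprinted zinc finger gene, fell by 2.80 ± 0.14. Dlk1, an imprinted inhibitor of adipocyte differentiation, was at 4.66, 4.31, 4.73 and 4.83 in the in vivo arrays and 4.89, 6.18, 5.85 and 5.66 in the cultured arrays (1.01 ± 0.23, adjusted p = 0.0023), and Grb10, an imprinted adaptor of the insulin receptor, changed by 0.54 ± 0.10. Grb10 was not called under either other scaling (adjusted p = 0.121 and 0.15 in limma), and Dlk1 was not called with all 16 arrays in the fit (adjusted p = 0.106).

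PDGF, FGF and EGF family genes had 11 of 30 higher, 11 lower and 8 not passing, with a median of -0.11, close to that of all genes. The ligands Pdgfc (3.19 ± 0.17), Ereg, epiregulin (2.39 ± 0.29), and Hbegf, heparin-binding EGF (2.25 ± 0.31), rose. Hbegf was at 7.90, 8.12, 7.12 and 7.49 in the in vivo arrays and 9.34, 9.30, 10.44 and 10.55 in the cultured arrays, again with cultured replicates 3 and 4 above 1 and 2. Pdgfrl, a secreted protein related to the PDGF receptors, was at 10.87, 10.51, 10.76 and 10.85 in the in vivo arrays and 7.46, 6.98, 6.60 and 7.31 in the cultured arrays (-3.66 ± 0.17, 12.6-fold, adjusted p = 7.73e-09), and Ntrk2, a neurotrophin receptor, fell by 2.36 ± 0.12.

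Matrix genes went both ways, against shares of 33.5% higher and 36.3% lower over all genes tested. Fibrillar and fibril-associated collagens were lower for 8 of 14, higher for 2 and not passing for 4 (median -0.28). Col1a2, a chain of type I collagen, the main collagen of the dermis, was at 8.77, 8.55, 8.79 and 8.88 in the in vivo arrays and 7.40, 7.32, 7.06 and 6.80 in the cultured arrays (-1.60 ± 0.14, 3.04-fold, adjusted p = 9.59e-07). Its partner chain Col1a1 fell less, at 12.59, 12.61, 12.62 and 12.49 in the in vivo arrays and 12.17, 12.24, 12.20 and 12.19 in the cultured arrays (-0.38 ± 0.08, 1.30-fold, adjusted p = 0.0017), as did Col3a1 of type III collagen (-0.55 ± 0.08, 1.47-fold, adjusted p = 1.28e-04). Both were brighter than the probe set of Col1a2 and were added after their values were seen. Col14a1, a fibril-associated collagen, was at 9.57, 9.97, 9.78 and 10.31 in the in vivo arrays and 5.76, 5.40, 5.26 and 5.92 in the cultured arrays (-4.32 ± 0.18, 20.0-fold, adjusted p = 3.15e-09), and Col16a1, of the same class, fell by 2.56 ± 0.09. Col12a1, a fibril-associated collagen of tissue under tension, rose by 1.32 ± 0.15, and Col11a1 was at 5.32, 4.71, 4.97 and 5.17 in the in vivo arrays and 7.37, 7.37, 5.90 and 6.05 in the cultured arrays (1.63 ± 0.32, 3.10-fold, adjusted p = 8.40e-04). The cultured replicates 1 and 2 of Col11a1 lay above replicates 3 and 4, and all lay above the in vivo arrays.

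Basement membrane collagens and laminins had 7 of 17 higher, 8 lower and 2 not passing, and their median of -0.04 was 0.02 without cultured replicate 3. The type IV chains Col4a5 (2.12 ± 0.16) and Col4a2 (1.11 ± 0.10) and the network collagen Col8a1 (1.79 ± 0.12) rose, whereas Col18a1, the source of endostatin (-2.68 ± 0.14), and the laminin chain Lama2 (-2.12 ± 0.11) fell. Collagen-modifying enzymes had 8 of 19 higher, 9 lower and 2 not passing (median -0.20). Loxl3, a lysyl oxidase that crosslinks collagen and elastin, was at 6.09, 6.95, 6.86 and 6.91 in the in vivo arrays and 10.73, 10.70, 10.59 and 10.59 in the cultured arrays (3.95 ± 0.17, 15.5-fold, adjusted p = 4.47e-09). Plod2, which hydroxylates the lysines used for stable crosslinks, rose by 3.05 ± 0.16 and P4ha3, a prolyl hydroxylase subunit, by 3.25 ± 0.15. Pcolce2, an enhancer of procollagen processing, was at 12.31, 12.32, 12.22 and 12.36 in the in vivo arrays and 9.88, 9.77, 9.78 and 10.10 in the cultured arrays (-2.42 ± 0.10, 5.35-fold, adjusted p = 2.81e-09).

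Small leucine-rich proteoglycans, which space collagen fibrils, were lower for 7 of 11, higher for 1 and not passing for 3 (median -1.51). Lum, lumican, was at 11.67, 11.70, 11.65 and 11.71 in the in vivo arrays and 7.55, 7.24, 6.63 and 7.50 in the cultured arrays (-4.45 ± 0.17, 21.9-fold, adjusted p = 1.96e-09). Ogn, osteoglycin, fell by 2.26 ± 0.21, Podn, podocan, by 2.26 ± 0.10 and Aspn, asporin, by 2.26 ± 0.30. Fmod, fibromodulin, had a change of 0.77 ± 0.26, adjusted p = 0.0209, with overlapping values, and it was no longer called higher under either other scaling or without cultured replicate 1 or 3 or in vivo replicate 3 or 4 (adjusted p from 0.0546 to 0.065 in limma). Of 12 tested elastic fibre genes 9 fell and 2 rose (median -1.81). Mfap4, a microfibril protein of the dermis, was at 11.67, 11.23, 11.57 and 11.32 in the in vivo arrays and 8.99, 8.67, 8.15 and 9.07 in the cultured arrays (-2.73 ± 0.19, 6.62-fold, adjusted p = 1.63e-07), and Mfap2, another microfibril protein, fell by 2.77 ± 0.16. Efemp1, fibulin-3, fell by 2.76 ± 0.14, while Fbln2, fibulin-2, was at 4.41, 4.02, 4.14 and 3.94 in the in vivo arrays and 7.10, 7.21, 7.67 and 7.50 in the cultured arrays (3.24 ± 0.14, 9.46-fold, adjusted p = 5.59e-09). Lox, lysyl oxidase, rose by 1.38 ± 0.11.

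Matricellular and adhesive glycoproteins were lower for 14 of 22, higher for 4 and not passing for 4 (median -0.86). Tgfbi, an adhesive protein induced by TGF-beta, was at 11.83, 11.82, 11.79 and 11.83 in the in vivo arrays and 7.65, 7.60, 7.53 and 7.88 in the cultured arrays (-4.15 ± 0.10, 17.8-fold, adjusted p = 7.00e-11). Tnc, tenascin-C of healing wounds, was at 5.19, 5.11, 5.62 and 5.90 in the in vivo arrays and 11.25, 11.05, 10.90 and 11.11 in the cultured arrays (5.62 ± 0.17, 49.3-fold, adjusted p = 3.10e-10), and Ccn4 rose by 2.47 ± 0.18. The changes of this list thus ran from -5.10 for Abi3bp to 6.29 for Npnt. Hyaluronan and versican genes had 5 of 12 higher, 3 lower and 4 not passing, with a median of 0.21 that turned to -0.14 after scaling to the 75th percentile. Has1, a hyaluronan synthase, was at 10.13, 10.18, 10.49 and 10.49 in the in vivo arrays and 6.37, 6.53, 6.44 and 6.73 in the cultured arrays (-3.81 ± 0.12, 14-fold, adjusted p = 4.92e-10). Tnfaip6, the hyaluronan-binding protein TSG-6, was at 10.80, 10.65, 11.06 and 11.24 in the in vivo arrays and 5.90, 5.74, 6.59 and 6.58 in the cultured arrays (-4.74 ± 0.20, 26.6-fold, adjusted p = 4.47e-09), and the hyaluronidase Hyal1 fell by 0.93 ± 0.13. Cd44, the main hyaluronan receptor, rose by 2.28 ± 0.09. Ptx3, a pentraxin that binds TSG-6, rose by 2.34 ± 0.30, while its other probe set was at -0.27. Metalloproteinases, their inhibitors and plasminogen genes had 7 of 22 higher, 11 lower and 4 not passing (median -0.38). Mmp3, stromelysin, was at 8.15, 9.13, 8.79 and 9.22 in the in vivo arrays and 5.36, 4.77, 4.74 and 4.93 in the cultured arrays (-3.87 ± 0.22, 14.6-fold, adjusted p = 3.50e-08). Timp1, an inhibitor of metalloproteinases, was at 7.95, 7.31, 8.03 and 8.24 in the in vivo arrays and 11.21, 11.23, 11.30 and 11.28 in the cultured arrays (3.37 ± 0.17, 10.4-fold, adjusted p = 1.20e-08). The membrane proteinases Adam19 (2.97 ± 0.21) and Adam12 (2.03 ± 0.10) rose, and Adamts1, a secreted aggrecanase, fell by 2.61 ± 0.19.

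Genes that mark dermal fibroblasts in the skin were lower in culture. In the dermal fibroblast identity list 19 of 24 tested genes fell, 1 rose and 4 did not pass, with a median of -1.87. Cd34, a surface sialomucin of skin fibroblasts, was at 11.49, 11.47, 11.49 and 11.64 in the in vivo arrays and 7.79, 7.37, 7.03 and 7.71 in the cultured arrays (-4.05 ± 0.15, 16.5-fold, adjusted p = 1.52e-09). Ntn1, netrin-1, was at 9.47, 9.50, 9.39 and 9.42 in the in vivo arrays and 5.74, 5.57, 5.28 and 5.86 in the cultured arrays (-3.83 ± 0.12, 14.2-fold, adjusted p = 5.08e-10). Scara5 was at 11.33, 11.38, 11.34 and 11.42 in the in vivo arrays and 7.22, 6.95, 6.50 and 7.15 in the cultured arrays, and Dlk1 was the gene that rose. The general fibroblast markers had 9 of 11 tested genes lower, none higher and 2 not passing, yet 10 of the 11 were above background in both groups. Their mean level was 10.78 to 10.84 in the in vivo and 9.54 to 9.82 in the cultured arrays. Dcn, decorin, was at 12.60, 12.59, 12.55 and 12.58 in the in vivo arrays and 11.27, 11.04, 10.74 and 11.25 in the cultured arrays (-1.51 ± 0.12, 2.84-fold, adjusted p = 5.41e-07), and Dpt, dermatopontin, was at 11.66, 11.72, 11.70 and 11.73 in the in vivo arrays and 9.15, 8.75, 8.63 and 9.04 in the cultured arrays (-2.81 ± 0.12, 7.01-fold, adjusted p = 3.76e-09). The defining markers of the labelled cell type were thus present in both groups, at lower levels in culture.

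Mesenchymal transcription factors were lower for 17 of 33, higher for 8 and not passing for 8 (median -0.43). Osr2, an odd-skipped related factor, was at 10.64, 10.72, 10.86 and 10.86 in the in vivo arrays and 7.25, 6.95, 6.82 and 7.12 in the cultured arrays (-3.74 ± 0.11, 13.3-fold, adjusted p = 3.18e-10). Meox2, a growth arrest-specific homeobox factor, fell by 2.87 ± 0.24 and Nfia by 2.59 ± 0.16. Hmga2, which is also on this list, rose, as did Foxp1 (2.14 ± 0.23) and Foxs1 (2.09 ± 0.23). Hox genes, which keep the positional identity of skin fibroblasts, had 4 of 20 higher, 4 lower and 12 not passing, against 69.8% of all genes called. Their median of 0.09 turned to -0.01 after cyclic loess, -0.26 after scaling to the 75th percentile and -0.06 without cultured replicate 1. Hoxd9 was at 9.94, 10.01, 10.13 and 10.52 in the in vivo arrays and 8.23, 8.59, 8.15 and 8.68 in the cultured arrays (-1.74 ± 0.16, 3.33-fold, adjusted p = 1.48e-06). The other Hox genes named by size of change were Hoxb5 (1.11 ± 0.35), Hoxa9 (-0.96 ± 0.15), Hoxb7 (0.91 ± 0.26) and Hoxd8 (-0.81 ± 0.24), and values overlapped in all of these but Hoxa9. Hoxb5 changed by 0.73 without in vivo replicate 3. The call was lost for Hoxb5 without in vivo replicates 1 and 3 together (adjusted p = 0.0592 in limma), for Hoxb7 after scaling to the 75th percentile (0.0509) and for Hoxd8 with all 16 arrays in the fit (0.0543). The list had 1 gene higher and 9 lower after scaling to the 75th percentile, and 6 higher and 5 lower after cyclic loess.

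Circadian clock genes were lower for 11 of 17, higher for 1 and not passing for 5 (median -0.88). Rora, an activator of the core clock loop, was at 10.98, 10.71, 10.65 and 10.72 in the in vivo arrays and 8.16, 7.74, 7.34 and 7.59 in the cultured arrays (-3.06 ± 0.16, 8.33-fold, adjusted p = 1.61e-08). Nr1d2, a clock repressor, fell by 1.67 ± 0.19, Nfil3, a repressor of clock outputs, by 1.72 ± 0.19 and Npas2, a core activator of the clock, by 1.40 ± 0.11. The repressor Cry1 rose by 0.45 ± 0.12 near background, and it was not called after scaling to the 75th percentile (a change of 0.11, adjusted p = 0.483 in limma). The hour of collection is unstated in the sources used here.

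Adipogenic and lipid handling genes had 6 of 21 higher, 11 lower and 4 not passing (median -0.35). Fabp4, a fatty acid binding protein of adipocytes, was at 3.70, 4.09, 3.92 and 3.85 in the in vivo arrays and 9.43, 7.91, 9.03 and 8.84 in the cultured arrays (4.91 ± 0.25, 30.1-fold, adjusted p = 1.73e-08), and Pparg, the regulator of adipocyte differentiation, was at 5.50, 5.14, 5.91 and 5.11 in the in vivo arrays and 8.51, 8.23, 8.01 and 7.74 in the cultured arrays (2.71 ± 0.20, 6.53-fold, adjusted p = 2.70e-07). The lipid transporters Abca8a (-4.31 ± 0.10) and Abca9 (-3.87 ± 0.13) fell. In the adipocyte marker list 1 gene was tested, Retn, resistin, which was 5.54 ± 0.27 in vivo and 5.15 ± 0.19 in culture, with overlapping values. Its call as lower was lost after cyclic loess (adjusted p = 0.206 in limma) and without cultured replicate 1, 2 or 3 or in vivo replicate 3 or 4 (adjusted p from 0.0619 to 0.0802 in limma). Lysosome genes were lower for 17 of 18 and not passing for 1 (median -0.73). Ctsk, the collagen-degrading cathepsin K, was at 11.32, 11.57, 11.67 and 11.64 in the in vivo arrays and 9.83, 9.74, 9.75 and 9.69 in the cultured arrays (-1.80 ± 0.10, 3.48-fold, adjusted p = 2.88e-08). The cathepsins Ctsf (-2.99 ± 0.11), Ctss (-2.05 ± 0.20) and Ctsh (-1.70 ± 0.10) fell as well. Channel genes had 8 of 16 higher, 7 lower and 1 not passing, with a median of 0.20 that turned to -0.15 after scaling to the 75th percentile. The gap junction genes moved apart, with Gjb2 at 3.79, 4.02, 4.53 and 3.99 in the in vivo arrays and 7.74, 8.07, 8.69 and 7.89 in the cultured arrays (4.02 ± 0.21, 16.2-fold, adjusted p = 1.61e-08) and Gja1 at 11.53, 11.38, 11.81 and 11.56 in the in vivo arrays and 10.12, 9.82, 9.66 and 9.91 in the cultured arrays (-1.69 ± 0.12, 3.23-fold, adjusted p = 2.69e-07). Scn7a, an atypical sodium channel, fell by 3.75 ± 0.16, and Aqp1, a water channel, rose by 2.70 ± 0.21.

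Markers of the remaining skin cell types were lower or did not pass, with a few exceptions, against 36.3% lower over all genes tested. Keratinocyte markers had 4 of 9 lower, 1 higher and 4 not passing, with mean levels of 5.17 to 5.46 in vivo and 4.89 to 5.05 in culture. Krt10 of the suprabasal epidermis was 6.91 ± 0.17 in vivo and 5.51 ± 0.14 in culture, Krt5 of its basal layer 6.15 ± 0.15 in vivo and 5.44 ± 0.04 in culture and the basal factor Trp63 6.79 ± 0.48 in vivo and 4.95 ± 0.27 in culture. Perp, a desmosome protein and p53 target, was the marker that rose (1.61 ± 0.21). Endothelial markers had 5 of 10 lower and 5 not passing, with mean levels of 5.0 to 5.12 and 4.41 to 4.55. The growth factor receptors Tek (-2.44 ± 0.27) and Kdr (-1.92 ± 0.16) fell furthest, while Pecam1 (-0.38 ± 0.09) and Esam (-0.36 ± 0.09) were near background in both groups. The lymphatic receptor Flt4 was also near background (4.40 ± 0.16 in vivo and 4.11 ± 0.08 in culture). All 5 tested melanocyte markers were lower, with mean levels of 5.61 to 5.94 and 4.66 to 4.79. They included the regulator Mitf (-2.70 ± 0.18), Sox10 (-0.58 ± 0.10), and the pigment proteins Pmel (-0.62 ± 0.08) and Mlana (-0.97 ± 0.25). Of 4 Schwann cell markers 3 were lower, among them Ngfr (-1.43 ± 0.18) and Mbp (-0.32 ± 0.11). Of 3 erythroid markers Hba-a1 (-0.55 ± 0.14) and Slc4a1 (-0.44 ± 0.15) were lower. Of 3 dermal papilla markers Lef1 was higher. After cyclic loess 2 endothelial markers were lower and 1 higher, and after scaling to the 75th percentile 9 were lower. Pecam1 and Esam were not called after cyclic loess (adjusted p = 0.096 and 0.227 in limma), nor were Flt4, Mbp and Slc4a1 (0.488, 0.473 and 0.202). Krt5 was not called with all 16 arrays in the fit (0.277), nor Hba-a1 with the mean over probe sets (0.1). Among these markers the calls of Flt4, Slc4a1 and Mbp were lost when single arrays were left out. This held for Flt4 without cultured replicate 1 or 3 or in vivo replicate 1 (adjusted p from 0.0527 to 0.0667 in limma), for Slc4a1 without cultured replicate 1 or 4 or in vivo replicate 3 or 4 (0.0515 to 0.0599) and for Mbp without cultured replicate 1 or in vivo replicate 4 (0.0543 and 0.05).

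**Figure D4:**
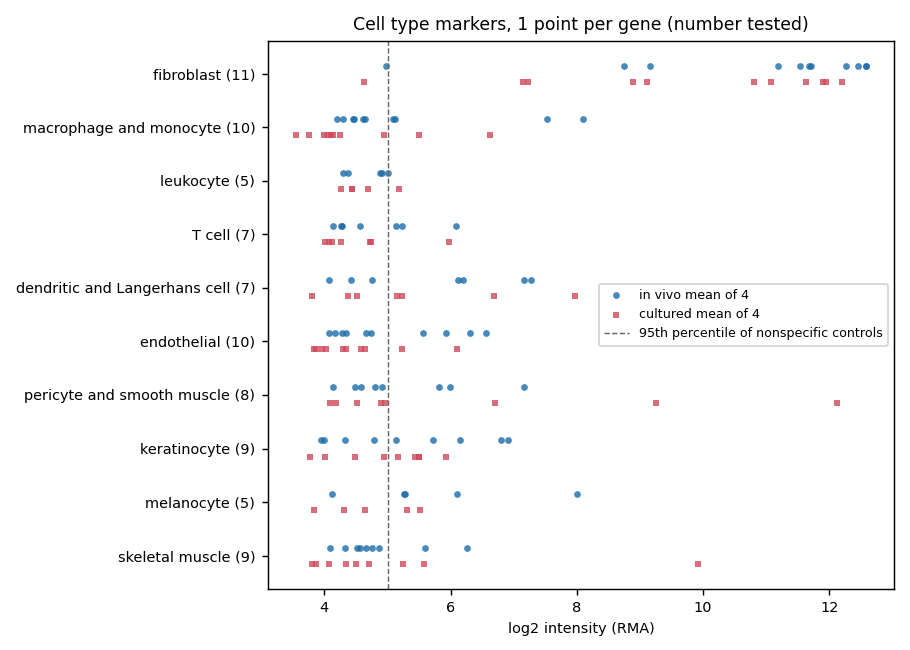
Mean log2 intensity (x axis) of each tested marker gene of 10 cell types, circles for the 4 in vivo and squares for the 4 cultured arrays, with the number of genes in brackets and the 95th percentile of the nonspecific controls as a dashed line. Fibroblast markers lie mostly at the right, and most markers of macrophages, leukocytes, T cells, endothelium and skeletal muscle lie near the dashed line in both groups.

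The last comparison asked whether the culture change of young cells differed from that of cells from mice aged 18 months. The test was the interaction in a fit to all 16 arrays, the old culture change minus the young culture change. Of 14819 genes tested, 87 (0.587%) passed, 29 with a positive and 58 with a negative interaction. The change was larger in young cells for 52 of the 87, and 13 had changes of opposite sign. Leaving out 1 array at a time gave 44 to 200 genes, with 44 without young cultured replicate 4 and 200 without old in vivo replicate 1. The count was 161 without young in vivo replicate 1, 55 without young cultured replicate 1 or 2, and 48 and 53 without old cultured replicates 2 and 4. The 30 genes with the largest changes in young cells moved in the same direction in old cells, and 1 of them, Col14a1, passed the interaction test (1.59 ± 0.34, adjusted p = 0.0461). Its culture change was -4.32 in young and -2.73 in old cells.

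Of the 10 genes with the largest interaction, 6 had at least 1 of the 4 group means near background, which limits the size of the changes and of the interaction. These were Bcat1 and Aldh1l2 in the old in vivo arrays, Scin, Camk2a and Ntng1 in the cultured arrays of both ages, and Rassf4 in all groups but the young in vivo arrays. Bcat1, the cytosolic aminotransferase of branched-chain amino acids, was at 9.18, 8.59, 8.44 and 8.18 in the in vivo arrays and 10.80, 10.68, 10.87 and 10.70 in the cultured arrays of young mice (change 2.17 ± 0.18). In old mice it was 4.48 ± 0.31 in vivo and 10.80 ± 0.09 in culture, a change of 6.32 (interaction 4.15 ± 0.25, adjusted p = 6.23e-08). Aldh1l2, a mitochondrial folate enzyme, changed by 2.05 in young and 4.81 in old cells (2.76 ± 0.29, adjusted p = 9.92e-05). In young and old cells it was at 6.88 ± 0.55 and 4.18 ± 0.30 in vivo, and at 8.92 ± 0.16 and 8.98 ± 0.10 in culture. Creb3l3, a membrane-bound transcription factor, was at 8.87, 8.68, 8.77 and 8.62 in the in vivo arrays and 5.23, 5.43, 5.39 and 5.36 in the cultured arrays of young mice. In old mice Creb3l3 was 6.06 ± 0.17 in vivo and 5.65 ± 0.26 in culture (interaction 2.97 ± 0.17, adjusted p = 5.14e-08). Igf2, an imprinted growth factor, changed by -1.66 in young and -4.23 in old cells (-2.56 ± 0.28, adjusted p = 1.24e-04). In young and old cells it was at 7.12 ± 0.15 and 9.39 ± 0.54 in vivo, and at 5.46 ± 0.24 and 5.17 ± 0.12 in culture. The other 6 genes with the largest interactions were Rassf4 (-2.70 in young, -0.20 in old), Cgref1 (-1.58 and 0.65), Scin (-1.48 and -3.38), Camk2a (-2.69 and -0.85), Ntng1 (-1.17 and -2.96) and Emid1 (-3.14 and -1.39). Of these 10 genes, Cgref1 was the one whose change had opposite signs at the 2 ages. For each of the 10 the mean levels of the 2 ages lay further apart in vivo than in culture.

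**Figure D5:**
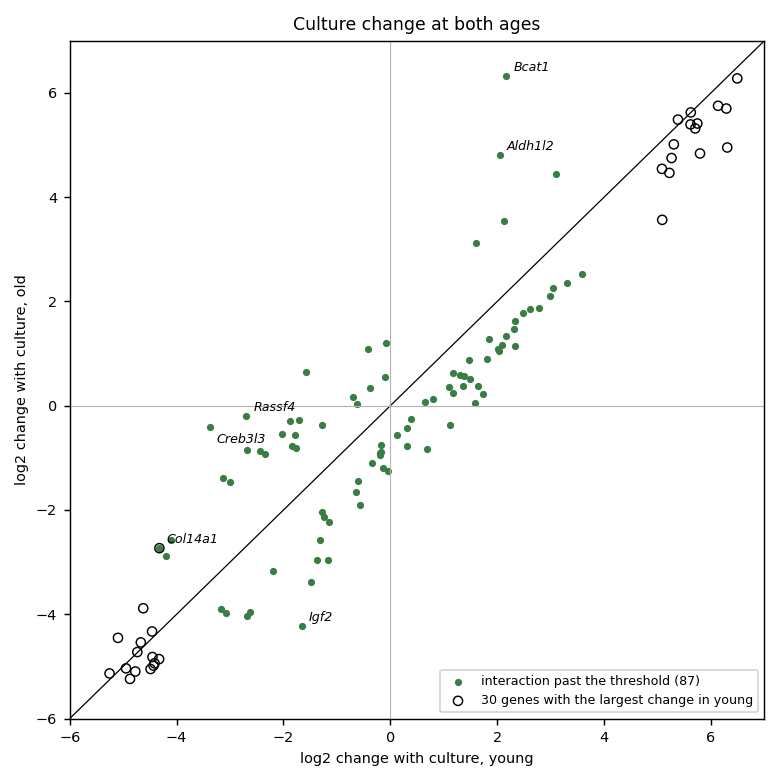
Change with culture in young cells (x axis) and in old cells (y axis), both log2, for the 87 genes that passed the interaction test (filled) and the 30 genes with the largest change in young cells (open circles); the diagonal marks equal changes. All 30 open circles lie in the quadrants of equal sign, and Bcat1 lies furthest above the diagonal.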

How the data were processed

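The authors deposited log2 intensities of 45141 probe sets on 16 arrays. The base of the logarithm was taken from their range (2.70 to 13.08). The submitters' processing notes name RMA and affy, with no version. RMA subtracts background and equalises the distributions of probe intensities, so a shift common to most genes is partly removed. The deposited values of the young arrays still differed in distribution between the conditions. Their median was 4.88 ± 0.03 in vivo and 4.75 ± 0.005 in culture, and their 75th percentile 6.56 ± 0.08 and 6.80 ± 0.045. Each difference had an exact two-sided permutation p of 0.0286 (SD, n = 4). Whether all arrays were normalised together is not given in the sources used here.

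Of the probe sets, 28898 had 1 gene symbol in the platform annotation, 551 had several and 15692, 104 of them controls, were not listed. The symbols of 28689 were updated through RefSeq (GRCm38.p6). The probe set with the highest mean over the 16 arrays stood for each of 17097 genes. Genes needed 4 of 8 arrays above 3.87, the 25th percentile of all values. Old arrays did not enter the comparison of young cells. limma 3.58.1 (R 4.3.3) was fitted without a block, with eBayes and Benjamini-Hochberg adjustment at 0.05. The number of arrays limits the precision, and no 2 arrays held identical values. According to the series' design each mouse gave both samples, so arrays of a group are taken as separate mice, which no label states per array. On 3 sets of simulated data of 14362 genes with 200 changed, 9.94% of calls were false, and 40.7% of changes of 0.5 and 90.3% of changes of 1 on the log2 scale were recovered. The 200 changed genes were few beside the 69.8% called here and were shifted upward only. These shares therefore do not describe the calls reported here.

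The genes named were those with the 15 largest increases and 15 largest decreases without overlap, up to 4 called members of each list with the largest change, up to 3 called against the list's median and the gene a list is named for, the 10 largest interactions, and the genes whose promoters are shown (Myl9 was added by this last rule alone). Col1a1, Col3a1 and Ccn1 were added after their values were seen, and Ccn1 was not in the checks of the named genes. The genes and lists were chosen with earlier results of these data known. Alternatives were 2 other scalings, 3 other filters, the mean over probe sets, array weights, a trended robust eBayes, all 16 arrays in the fit, limma's treat, and each array left out. Pandas 2.3.3 and scipy 1.17.1 were used for summaries and exact tests.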

Additional observations from a re-analysis of the deposited data

Results flagged for a closer look

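Among the 270 named genes, 540 groups of 4 arrays were checked for an array that stood apart from the other 3 (Dixon's test at the 95% level), and 18 groups held one, fewer than the 5 in 100 that chance gives. In vivo replicate 3 stood apart for 6 genes. It was low for Ccn4 (6.91, others 7.53 to 7.60), Mgst1 (9.26, others 9.60 to 9.65), Nt5e (7.41, others 7.81 to 7.87) and Rspo1 (6.24, others 7.05 to 7.09), and high for Adam12 (8.67, others 8.35 to 8.40) and Dnmt3a (8.91, others 8.55 to 8.60). In vivo replicate 1 was low for Loxl3 (6.09, others 6.86 to 6.95) and Sfrp1 (8.69, others 9.32 to 9.40) and high for Pfkl (8.21, others 7.86 to 7.88). In vivo replicate 4 was high for Cd34 (11.64, others 11.47 to 11.49) and Cx3cr1 (4.89, others 4.56 to 4.57), and in vivo replicate 2 was low for Tgfb1 (5.61, others 5.95 to 6.00). Cultured replicate 2 was low for Psmb7 (9.68, others 9.87 to 9.90), Rspo1 (3.58, others 3.97 to 4.02) and Tgfb1 (8.31, others 8.51 to 8.55) and high for Tpm2 (11.70, others 11.52 to 11.55). Cultured replicate 3 was high for Pdgfc (8.69, others 8.27 to 8.33) and Wnt4 (7.42, others 7.20 to 7.23).

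The culture change differed between ages in limma's interaction test for 12 of the named genes, given as the old minus the young change on the log2 scale. It was more positive in old cells for Bcat1 (4.15), Creb3l3 (2.97), Aldh1l2 (2.76), Rassf4 (2.50), Cgref1 (2.23), Camk2a (1.84), Emid1 (1.75), Col14a1 (1.59) and Col4a5 (1.43). It was more negative for Igf2 (-2.56), Scin (-1.90) and Ntng1 (-1.79). Of these genes, 10 were named for the size of this difference, so the values describe them and lend it no further support.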

How the results depend on the processing

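No paired analysis was possible because the labels do not say which arrays share a mouse or a collection day. The 5209 genes called lower became 8418 after scaling to the 75th percentile and 3324 with the filter at the nonspecific controls, which was chosen after seeing the data and tests fewer genes. The 2202 genes at least 2-fold higher became 1404 after scaling to the 75th percentile and 1333 with limma's treat, and the 1233 at least 2-fold lower became 2085 and 780. Treat asks more of each gene by construction. Leaving out 1 array at a time gave 4581 to 4848 genes called higher, 4582 to 5292 lower, 2079 to 2318 at least 2-fold higher, 1212 to 1255 at least 2-fold lower and 44 to 200 interactions. Without in vivo replicates 1 and 3 together, a choice also made after seeing the data, 4577 genes were higher and 4696 lower.

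The direction turned for Cx3cr1, at -0.053 after scaling to the 75th percentile, and for several list medians, and the cause was not tested. After scaling to the 75th percentile the medians were -0.075 for NRF2 targets, -0.14 for hyaluronan and versican, -0.26 for Hox genes, -0.059 for heat shock chaperones, -0.26 for chaperones of the endoplasmic reticulum and -0.15 for channels. After cyclic loess they were -0.033 for NRF2 targets, -0.0077 for Hox genes, -0.21 for chaperones of the endoplasmic reticulum and 0.18 for pericyte and smooth muscle markers. The last list was at 0.26 when the probe sets of each gene were averaged. Its 2.12 with the filter at the nonspecific controls is the median of fewer genes and does not bear on its direction. With 1 array left out at a time, the median ran from -0.10 to 0.015 for basement membrane genes (highest without cultured replicate 3) and from -0.063 to 0.12 for Hox genes (lowest without cultured replicate 1). Of the named genes, 25 lost their call under at least 1 alternative, 10 of them when 1 array was left out.

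Signal limits the rest. A fold change of a gene with 1 group near background is compressed, and 3792 genes with both means there give little information on direction. The arrays give no cell counts, so the share of each cell type is unknown. Intensities of different genes were not compared, apart from those of Col1a1 and Col3a1 with that of Col1a2.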

Other observations

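Of 5664 genes with more than 1 tested probe set, 430 had probe sets called in opposite directions in culture, and for 16 both changes were at least 2-fold. For these genes the direction depends on the probe set that represents the gene.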
